A study of Rattus norvegicus with 2 samples.

Results

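Peroxisomal genes were followed in kidneys from PCK females, rats of a strain that models human autosomal recessive polycystic kidney disease. The set holds 30 genes, 12 peroxins, 15 enzymes and 3 ABC transporters, among 13435 named genes on the array. Members were chosen by function, with earlier results of these data known. Their probes were found by matching each probe's RefSeq accession to the current rat gene symbol. Of the 30, 29 had a probe, and all 29 were well above background on both arrays. Abcd4, whose product carries cobalamin out of lysosomes in mammalian cells, was matched by no accession and is not analysed here.

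Treated females were gavaged every day with pioglitazone, which activates the nuclear receptor PPAR-gamma, at a dose of 10 mg/kg, starting at 4 weeks of age and ending at 20 weeks. Controls were gavaged with vehicle holding 0.5% DMSO over the same period. All animals of both groups carried the PCK mutation, and normal rats are not analysed here. The kidney RNA of a group was combined into a single pool and read on 1 array, both arrays lying on the same slide and read in the same scan. The submitters give the pool as 5 females in the design text and as 3 rats in the labelling text. With 1 array per group no difference has a replicate check, and no p-value was computed. Differences are pioglitazone minus vehicle on the log2 scale after each array was set to its 75th percentile, and signals are processed spot intensities on a linear scale.

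Peroxisomes are single-membrane organelles that shorten very long and branched fatty acids by beta-oxidation and break down the hydrogen peroxide that their oxidases release. Peroxins build the organelle: soluble receptors bring folded enzymes from the cytosol, a membrane complex takes them through, and a ubiquitin ligase and an ATPase return the receptor. In the kidney they are most abundant in the proximal tubule. In rodent liver many of their enzymes, and the division factor Pex11a, are targets of PPAR-alpha, a relative of the receptor that pioglitazone activates.

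The proximal promoters of 4 members are shown: Pex11a because it had the largest difference among peroxins, Phyh and Amacr because they had the largest among enzymes, and Cat as the classical marker enzyme of the organelle, with a difference close to 0. Each runs from 250 bases before to 50 bases after the RefSeq start in build GRCr8, 5′ to 3′ on the gene's strand. Capitals mark, on either strand, the nuclear receptor half-site AGGTCA and the core promoter letters known as the GC box (GGGCGG), together with the CCAAT box and, where present, letters of the form TATAAA. The windows are chr1:143096442-143096741 (minus strand) for Pex11a, chr17:78255596-78255895 (minus) for Phyh, chr2:61673085-61673384 (plus) for Amacr and chr3:110329477-110329776 (minus) for Cat.
Pex11a: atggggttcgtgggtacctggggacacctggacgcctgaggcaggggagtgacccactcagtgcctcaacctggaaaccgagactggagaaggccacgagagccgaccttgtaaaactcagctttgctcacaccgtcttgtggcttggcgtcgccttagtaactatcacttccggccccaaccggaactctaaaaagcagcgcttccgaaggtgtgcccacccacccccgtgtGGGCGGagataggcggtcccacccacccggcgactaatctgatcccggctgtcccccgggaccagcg
Phyh: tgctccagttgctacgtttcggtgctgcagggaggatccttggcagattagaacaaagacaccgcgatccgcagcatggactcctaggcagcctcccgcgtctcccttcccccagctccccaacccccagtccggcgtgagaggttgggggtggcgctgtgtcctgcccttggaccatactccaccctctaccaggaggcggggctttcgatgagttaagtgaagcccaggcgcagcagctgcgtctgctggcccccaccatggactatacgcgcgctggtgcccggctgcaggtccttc
Amacr: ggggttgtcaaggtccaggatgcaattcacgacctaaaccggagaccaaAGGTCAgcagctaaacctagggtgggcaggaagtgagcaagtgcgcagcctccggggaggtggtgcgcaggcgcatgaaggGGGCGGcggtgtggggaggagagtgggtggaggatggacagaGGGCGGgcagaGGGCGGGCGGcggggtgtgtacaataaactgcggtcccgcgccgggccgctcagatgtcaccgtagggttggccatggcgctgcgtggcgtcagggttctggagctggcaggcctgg
Cat: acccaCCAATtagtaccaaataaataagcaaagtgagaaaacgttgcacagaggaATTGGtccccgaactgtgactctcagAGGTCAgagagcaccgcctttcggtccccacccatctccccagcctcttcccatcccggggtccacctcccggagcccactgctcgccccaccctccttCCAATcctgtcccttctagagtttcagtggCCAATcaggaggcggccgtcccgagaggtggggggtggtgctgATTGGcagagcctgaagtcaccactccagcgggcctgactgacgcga
The Pex11a window held 1 GC box, the Amacr window held 4 GC boxes, of which the last 2 overlap, and 1 half-site, and the Cat window held 5 CCAAT boxes and 1 half-site. The Phyh window held none of these motifs.

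RefSeq promoters were at hand for 27 of the 30 members, among 33469 promoters in all. PPARs with their partner RXR bind a direct repeat of the half-site spaced by 1 base, and neither AGGTCANAGGTCA nor the looser AGGNCANAGGNCA occurred on either strand in any of the 27 windows. These letters occurred in 0.0538% and 0.415% of all promoters, and the 300 bases searched leave out more distant elements. The single half-site AGGTCA, which is also part of the strict repeat, lay in the windows of 5 of 14 enzymes (35.7%) and of 0 of 10 peroxins, against 12.9% of promoters of measured genes. The enzymes were Amacr, Cat, Dao, Eci2 and Hsd17b4. GC boxes lay in 8 of 10 peroxin windows (80.0%) and in 9 of 14 enzyme windows (64.3%), against 58.1% of promoters of measured genes. Observed over expected CpG had a median of 0.69 for peroxins and 0.56 for enzymes, with 0.73 for measured genes, and was lowest in Dao at 0.18. A match describes the letters of the window and is no binding site.

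Peroxisomal genes lay slightly above the rest of the array with pioglitazone, and the differences were small. Of the 29 measured members 23 (79.3%) had positive differences, where 56.1% of the 10480 measured genes did. Their median difference was 0.13, against 0.03 for all measured genes, and their quartiles were 0.08 and 0.18. A 1.5-fold difference past 2 times the technical error, which combines the scanner software's errors of both spots and was 0.20 for most members, was reached by 0 members in either direction, where 0.754% of measured genes were higher and 1.76% lower by that rule. This error of 0.20 is the lowest among members and is identical for most of them. It therefore acts as a common cutoff and is not a spread measured for each gene. At the smaller step of 1.2-fold, 3 members were higher (Phyh, Pex11a and Amacr) and 1 lower (Abcd2), where 8.22% and 11.1% of measured genes were. The 3 higher members are a share close to that background. Over 5 equal classes of signal the share higher by 1.2-fold fell from 15.2% in the dimmest to 5.73% and 4.34% in the 2 brightest. Those 2 classes hold 11 and 10 members, Phyh and Amacr among them. Set against the median of its class, 1 member was higher by 1.2-fold, where 7.57% of measured genes were.

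Replicate spots give a second measure of error. Over 206 probes printed several times, the SD of the difference across spots had a median of 0.07, and 11 members were higher by more than 2 times that SD, where 23.5% of measured genes were. In either direction 7 members exceeded 1 technical error, where 26.7% of measured genes did. Brighter probes as a whole had higher differences on these arrays: over 5 equal classes of signal the median was 0.05 in the brightest and -0.02 in the dimmest. The 2 brightest classes held 11 and 10 members, and 61.1% and 68.4% of their measured genes were positive. Set against the median of its own class, the median member was higher by 0.09, and 22 of 29 lay above it.

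**Figure D1:**
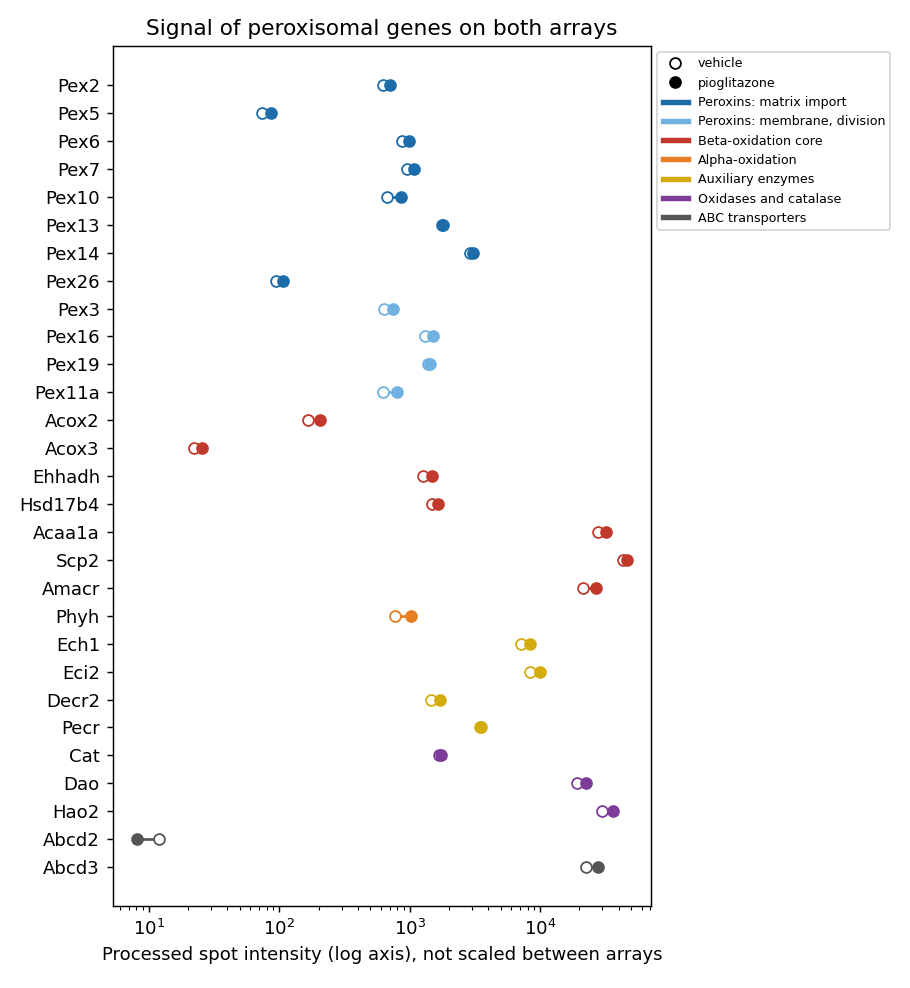
Processed spot intensity of each measured member on a log axis, with an open point for the vehicle array and a filled point for the pioglitazone array, coloured by role. The values are not scaled between arrays, which moves every filled point to the right by 0.08 on the log2 scale, and Abcd2 and Pecr are the members whose filled point lies to the left of the open one.

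The 12 peroxins had a median difference of 0.10, with a range from -0.05 to 0.29, and 9 of 12 were positive. None of them passed 1.5-fold, where 2.71% of measured genes did in either direction, and 0 of 12 is near that share. Among those that import matrix enzymes, Pex5, the receptor that reads the C-terminal targeting signal of most enzymes, read 74.2 with vehicle and 86.9 with pioglitazone, a difference of 0.15. Pex7, the receptor for the N-terminal signal carried by thiolase and by Phyh, read 951 and 1080, a difference of 0.10. Both receptors were thus higher by less than their technical errors of 0.21 and 0.20.

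The docking proteins Pex13 and Pex14, which receive loaded receptors at the membrane, were among the 3 peroxins with negative differences as reported. Pex13 read 1760 and 1800, a scaled difference of -0.05. Pex14 read 2900 and 3030, a scaled difference of -0.02. Both turned positive with median scaling and with no scaling between arrays, and both lay below the median of all genes in all 14 settings tried, the reported one included. A shift of a whole array leaves a gene's place relative to that median unchanged.

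The ligase and export genes, which modify and release the receptor, were all positive. Pex10, a RING subunit of the ubiquitin ligase, read 674 and 851, a difference of 0.25 and the largest among the import peroxins. Its partner Pex2 read 621 and 701, a difference of 0.09. Pex6, an ATPase that pulls the receptor out, read 878 and 990, a difference of 0.09, and its membrane anchor Pex26 read 93.6 and 106, a difference of 0.10. Pex10 alone among these 4 exceeded its technical error of 0.20, and none exceeded 2 times it.

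Membrane assembly uses Pex19 as a chaperone, Pex3 as its dock and Pex16 to recruit Pex3. Pex3 read 639 and 742, a difference of 0.13, and Pex16 read 1310 and 1510, a difference of 0.12. Pex19 had 4 probes that disagreed in sign: the brightest read 1390 and 1430, a difference of -0.04, and the others gave 0.01, 0.17 and 0.23. The probe with 0.23 carries another accession of the same gene. Pex19 has therefore no settled direction here.

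Pex11a, which elongates the membrane before the organelle divides, had the largest difference of all peroxins. Its brighter probe read 621 and 802, a difference of 0.29 or 1.22-fold, at the 93.2 percentile of measured genes. Its dimmer probe read 126 and 170, a difference of 0.35. Both probes were higher with pioglitazone by more than their technical errors of 0.20 and 0.21. Both lie in the seventh of 10 bands of grid rows, and the setting without the sixth and the seventh band, which hold 9 members, leaves Pex11a out.

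The 15 enzymes had a median difference of 0.14, with a range from -0.12 to 0.33, and 13 of 15 were positive. Their median exceeded that of the peroxins by 0.04, and the ranges overlap. That gap is below the SD of 0.07 between replicate spots, which describes single spots and not the median of a list. The enzyme median stayed above the peroxin median in all 13 alternative settings, by 0.02 to 0.05. Settings that only shift a whole array, such as median scaling or no scaling, leave this gap at 0.04 by construction. Each member probe was a single spot and each group 1 pooled array, so enzymes and peroxins are not shown to differ.

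Phyh hydroxylates phytanoyl-CoA, the step that opens alpha-oxidation of this plant-derived branched fatty acid, and had the largest positive difference of all members. Its brighter probe read 765 and 1020, a difference of 0.33 or 1.26-fold, at the 95.4 percentile of measured genes. Its second probe read 548 and 778, a difference of 0.42. The probes lie in separate bands of grid rows, and both exceeded their technical error of 0.20, the second also exceeding 2 times it.

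Amacr, the racemase that turns branched acyl-CoAs into the form the oxidases accept, was higher by a similar step. Its brighter probe read 21100 and 27000, a difference of 0.27 or 1.21-fold. Its second probe, outside the middle bands, read 5170 and 7390, a difference of 0.43. The gene's difference ran from 0.21 to 0.43 over all 14 settings.

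The branched-chain oxidases feed the beta-oxidation spiral in rat tissue. Acox2, which handles bile acid intermediates, read 165 and 205, a difference of 0.23. Acox3, which handles pristanoyl-CoA, read 22.3 and 25.8, a difference of 0.13 that turned to -0.03 with normexp background correction. Acox2 exceeded its technical error of 0.20, and Acox3 did not exceed its own of 0.26.

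The bifunctional enzymes carry out the middle steps of the spiral. Ehhadh, which forms the L-hydroxy intermediate and is a classical PPAR-alpha target in rodent liver, read 1260 and 1490, a difference of 0.16. Hsd17b4, which forms the D-hydroxy intermediate used by branched and bile acid chains, read 1470 and 1650, a difference of 0.08. Neither exceeded its technical error of 0.20, and both were positive in all 14 settings.

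The thiolases cut the chain at the last step. Acaa1a had 2 probes, one reading 27900 and 32200, a difference of 0.12, and the other 11900 and 14400, a difference of 0.19. Its close paralog Acaa1b read 17100 and 19700, a difference of 0.12, and the paralogs can share probe signal. Scp2, which encodes both a thiolase for branched chains and a sterol carrier protein, read 43200 and 46000, a scaled difference of 0.01 that was negative in 6 of 14 settings. Scp2 thus had no settled sign.

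Auxiliary enzymes move or reduce double bonds so that unsaturated chains can enter the spiral. Ech1, a dienoyl-CoA isomerase, read 7140 and 8400, a difference of 0.15. Eci2, an enoyl-CoA isomerase, read 8340 and 10000, a difference of 0.18, and Decr2, a dienoyl-CoA reductase, read 1460 and 1700, a difference of 0.14. These 3 were positive in all 14 settings and stayed below their technical error of 0.20. Pecr, a trans-enoyl-CoA reductase, went the other way, reading 3540 and 3450, a difference of -0.12, and was negative in all 13 settings in which it was measured.

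Oxidases release hydrogen peroxide and catalase removes it. Hao2, a hydroxy acid oxidase, read 29900 and 36000, a difference of 0.19. Dao, which oxidises D-amino acids, read 19200 and 22400, a difference of 0.14. Both oxidases were positive in every setting in which they were measured. Cat read 1680 and 1750, a scaled difference of -0.02 that turned positive with median scaling and with no scaling, and lay below the median of all genes in all 13 settings in which it was measured. As for Pex13 and Pex14, a shift of a whole array cannot change that last result.

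The ABC transporters bring acyl-CoAs through the peroxisomal membrane. Abcd3, the most abundant such protein in rodent liver peroxisomes, read 22500 and 27600, a difference of 0.21 or 1.16-fold that just exceeded its technical error of 0.20. Abcd2, which prefers very long and polyunsaturated chains, read 11.9 and 8.13, a difference of -0.63. Abcd2 is the only member past 1.5-fold, where 2.71% of measured genes are, and it lies close to the lowest signals well above background, 7.66 with vehicle and 7.16 with pioglitazone. Its difference stayed within 2 times its technical error of 0.39, fell short of 1.5-fold with median scaling (-0.58), with cyclic loess (-0.56) and with no scaling (-0.55), and shrank to -0.10 with normexp correction.

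**Figure D2:**
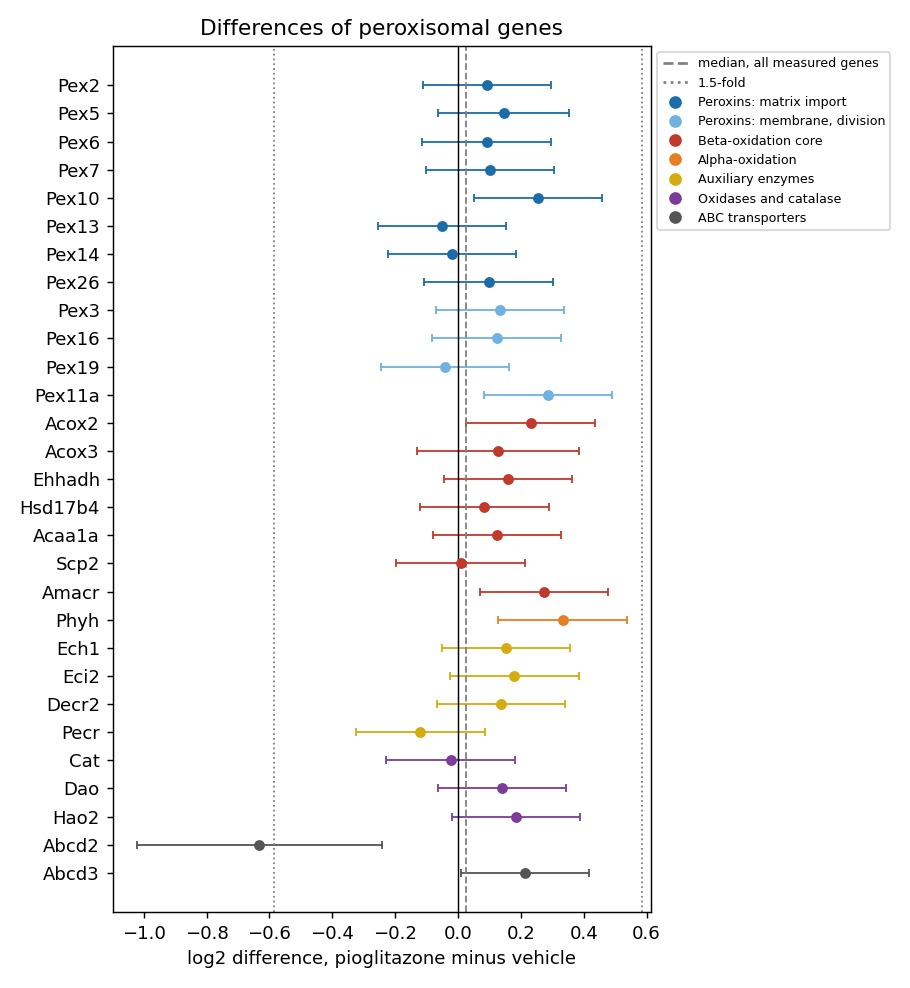
Log2 difference of each measured member, pioglitazone minus vehicle, with bars of 1 technical error to each side, ordered by role. The dashed line is the median of all measured genes, 0.03, the dotted lines mark 1.5-fold, and most points lie to the right of the dashed line with bars that cross 0.

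In all, 36 probes were assigned to the 29 genes, and 30 of them had positive differences. The probes beyond 1 per gene repeat 5 of the genes, so this count adds no gene to the 23 positive ones. For 4 of the 5 genes with several probes, Pex11a, Phyh, Amacr and Acaa1a, the dimmer probe gave the larger positive difference. In Pex19, whose probes disagreed in sign, the difference also rose as the signal fell, from -0.04 to 0.23. The brightest probe, which each gene took, thus gave the lowest difference in all 5 genes. Member differences were set against the median of the band of grid rows in which each lies, with band medians between 0.01 and 0.04, and the median member was then higher by 0.10.

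Other peroxisomal genes gave a similar picture. The list held 55 genes, of which 46 had a probe and 44 were measured. Of these 44, 35 (79.5%) were positive, with a median of 0.11, and 1 was higher past 1.5-fold and 2 times the technical error while 0 were lower, beside the background of 0.754% and 1.76% given above. That gene was Acot12, a cytosolic acetyl-CoA thioesterase that was listed with its peroxisomal relatives, which read 72.1 and 131, a difference of 0.78. The next largest differences were 0.57 for the acyl-CoA thioesterase Acot4, 0.38 for the malonyl-CoA decarboxylase Mlycd, 0.36 for the epoxide hydrolase Ephx2, 0.32 for the membrane protein Pxmp4 and 0.30 for the carnitine acetyltransferase Crat. Pipox, which oxidises sarcosine and pipecolate, and the urate oxidase gene Uox were not well above background on either array.

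PPAR-alpha targets outside the peroxisome were positive in 17 of 24 measured genes (70.8%), with a median of 0.10, where 56.1% of all measured genes were positive. Past 1.5-fold in either direction were 0 of the 24, which is near the 2.71% of all measured genes. The largest differences were 0.37 for Cyp4a2 and 0.33 for Cyp4a1, which hydroxylate fatty acids, 0.25 for the thioesterase Acot1, -0.23 for the hormone Fgf21, 0.22 for Hadhb of the mitochondrial trifunctional protein and 0.22 for Angptl4, an inhibitor of lipoprotein lipase. Fgf21 read 13.3 and 12, close to the lowest signals well above background, and its difference lay within its technical error of 0.33. Cyp4a2 and Cyp4a1 have close relatives that can share probe signal. The mitochondrial gatekeeper Cpt1a, read from 10 spots, was at -0.05, between -0.11 and 0.05 over its spots.

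Among the receptors, Ppara read a mean of 87.3 with vehicle and 110 with pioglitazone over 10 spots, a difference of 0.25 that ran from 0.10 to 0.31 and was positive in all 10. Pparg read 37.5 and 32.3, a difference of -0.30 that ran from -0.47 to -0.03 over its 10 spots. The spots of a probe share 1 RNA pool and show printing and reading error only. Ppard was at 0.34, the retinoid receptors Rxrb and Rxrg at 0.09 and 0.06, and the coactivators Ppargc1a and Ppargc1b at -0.23 and -0.15. None of the 7 measured genes passed 1.5-fold, which is near the share of 2.71% among all measured genes.

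Markers of the proximal tubule, the segment richest in peroxisomes, lay on the same side as the members. Of 20 listed markers 19 were measured, 18 were positive, and their median of 0.19 exceeded that of the members. Their summed signal, in multiples of each array's 75th percentile, was 1166 with vehicle and 1293 with pioglitazone, and that of the members was 474 and 520. The transporters Slc34a1, Slc5a2 and Slc5a1 were at 0.03, 0.08 and 0.33. Fibroblast markers went the other way, negative in 6 of 6 with a median of -0.37 and summed signals of 42.2 and 32.5, as did macrophage markers, negative in 7 of 7 measured with a median of -0.35 and summed signals of 26.3 and 20.5. All 5 podocyte markers were positive, and their median was 0.30. Of 9 distal tubule and collecting duct markers 4 were positive, with a median of -0.02. Their differences ran from -0.34 to 0.42, so that median does not stand for each of them. Of 5 endothelial markers 2 were positive, with a median of -0.04. Of 4 thick ascending limb markers 3 were positive, the median being 0.15, and the 4 measured erythroid markers were all negative, with a median of -0.51. Slc4a1, at -0.03, counts in both the erythroid list and the distal tubule and collecting duct list. The part of cell makeup in the members' shift was not tested, and in whole kidney RNA more cells of a type and more RNA per cell cannot be told apart.

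Liver also holds many peroxisomes, and its markers were read as a check on the tissue. Of 8 hepatocyte markers 6 were measured, with summed signals of 20.5 and 17.2 and a median of -0.18. The liver enzyme gene Tat was not well above background on either array. Alb read 24.8 and 19.2, while the coagulation genes F2, at 4940 and 4640, and Fgb, at 3690 and 3020, carried most of the summed signal. Ttr was the positive marker, at 0.53. Adipocyte markers were negative in 6 of 6 measured genes, with summed signals of 7.80 and 5.01 and a median of -0.66, and Lep was not well above background on either array. Car3 read 38 with vehicle and 7.82 with pioglitazone, and was not well above background on the pioglitazone array, so it did not count as measured. The measured markers were split. Retn, Ucp1 and Cfd were at -2.27, -1.78 and -1.18. Cidea, Adipoq and Fabp4 were at -0.14, -0.10 and -0.07, within their technical errors, and the median falls between these groups.

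**Figure D3:**
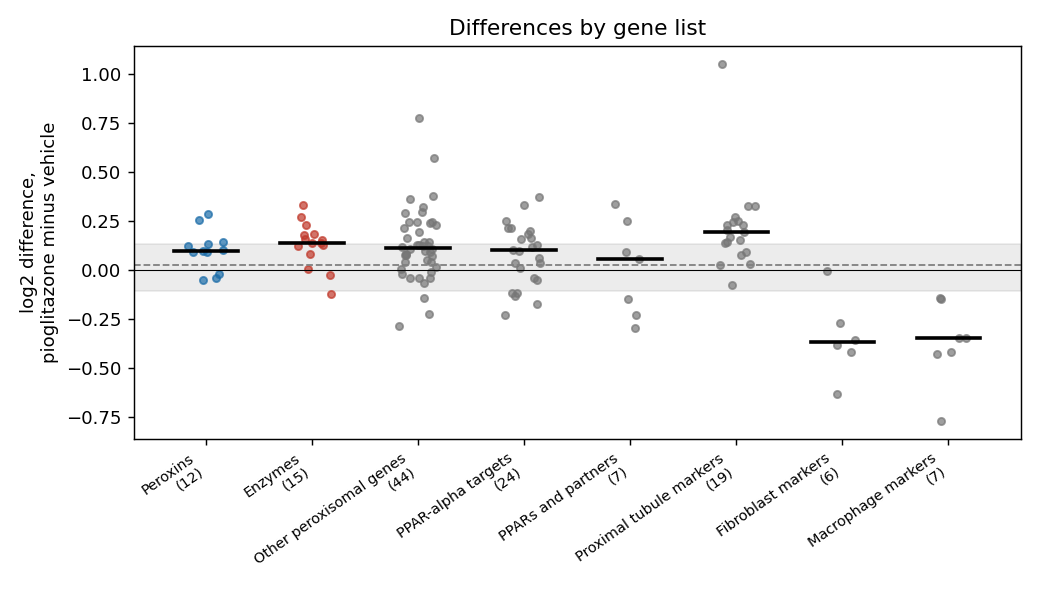
Log2 difference of each measured gene, pioglitazone minus vehicle, by list, with the number of genes in brackets and a bar at each list's median. The grey band spans the quartiles of all measured genes, from -0.11 to 0.14, and the dashed line is their median; peroxins, enzymes and proximal tubule markers centre above that line, and fibroblast and macrophage markers lie below the band's centre.

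**Figure D4:**
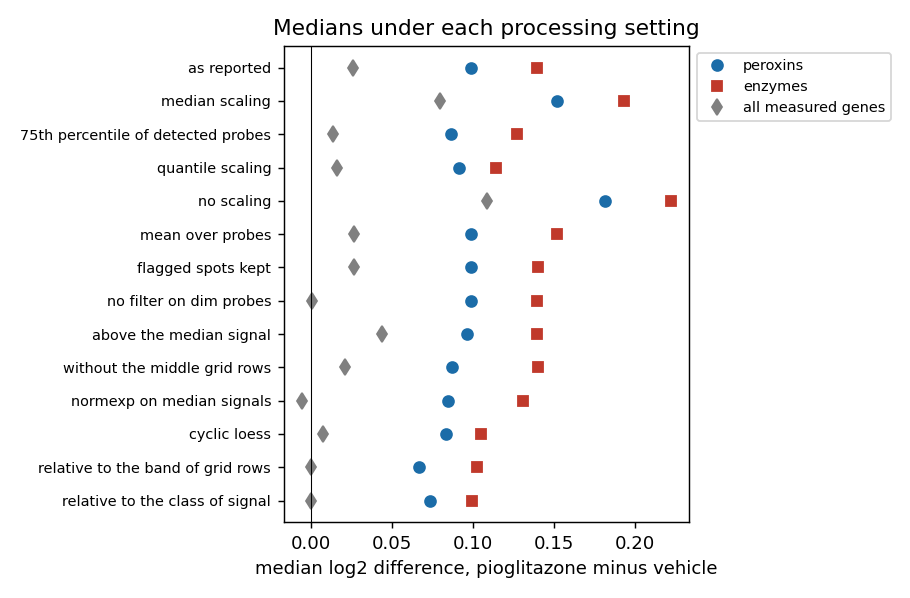
Median log2 difference of the 12 peroxins, the 15 enzymes and all measured genes (x axis) under each processing setting (y axis), with fewer genes measured where a setting removes probes. Both medians stayed above that of all genes in each setting shown, and no scaling moved all of them to the right together. Settings that only shift a whole array leave the gaps between the medians unchanged.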

How the data were processed

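Members and lists were chosen with earlier results of these data known. Per the file headers, the deposited intensity values are spot signals on a linear scale from Agilent Feature Extraction 10.7.3.1, background-subtracted and detrended array by array and not scaled to each other. The value table holds the same numbers at all 43379 non-control spots of each array. Of those spots 71.8% and 73.1% were well above background, and 0 were saturated. The 149 spots with an outlier flag were dropped. Log2 signals were scaled to the 75th percentile of their array (a shift of 0.08 between arrays), and spots of a probe were averaged. RefSeq accessions named 16959 of 40998 probes (41.4%) through a GRCr8 gene table. The headers give the older rn4 build, so only the printed promoters carry coordinates. A gene took its brightest probe and counted as measured if both arrays had it well above background, which left 10480 of 13435 named genes. The text names all members, the 6 largest differences each among other peroxisomal genes and PPAR-alpha targets, the receptors, and the leading markers of the tubule list. Pipox, Uox, Acaa1b, Cpt1a, Tat, Alb, F2, Fgb, Ttr, Lep, Car3, Slc4a1 and the 6 measured adipocyte markers were named after their values were seen. Promoter motifs and the printed promoters were also chosen then. The gene step was checked on simulated data. Python 3.11.15, pandas 2.3.3, R 4.3.3 and limma 3.58.1 were used. Intervals between animals cannot be had, since the number of arrays limits the precision.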

Additional observations from a re-analysis of the deposited data

How the results depend on the processing

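Of 13 alternative settings, 9 were planned and 4 (normexp on median signals, cyclic loess, and differences relative to the band of grid rows or to the class of signal) were added after seeing the data. A median counted as moved when it changed by more than the SD of 0.07 between replicate spots. Normexp correction of mean signals had been planned and was not run, since that column is not used here. As for pairing, no paired analysis was possible because the replicate number is 1 throughout. The member median lay between 0.09 and 0.21, and above that of all genes by 0.08 to 0.13. Settings that only shift a whole array cannot change the gap to the median of all genes. With no scaling, where the all-gene median was 0.11, the medians moved to 0.21 for members, 0.18 for peroxins, 0.22 for enzymes, -0.13 for transporters, 0.19 for other peroxisomal genes and 0.18 for PPAR-alpha targets. The transporter median of -0.21, over 2 genes, became 0.21 above the median signal, where Abcd2 drops out, and 0.064 with normexp. The members higher by 1.2-fold numbered 6 with median scaling, 7 with no scaling and 1 relative to the class of signal, against 3 as reported, while 13.2%, 17.4% and 7.57% of all measured genes were higher by that step, against 8.22%, and those lower numbered 0 above the median signal and with normexp, against 1. Positive members numbered 17 of 21 without the middle grid rows, 19 of 24 above the median signal and 22 to 27 of 29 in settings that kept all members, while the positive share of all measured genes was 55.0%, 63.0% and 48.7% to 70.9%. No member met the 1.5-fold and error criterion in any of these settings. Signal near background limits Abcd2 and Acox3.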
